A study of Arabidopsis thaliana with 18 samples.

Results

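The comparison described here sets bro1-1 against WT seedlings of Arabidopsis thaliana after 4 h of abscisic acid (ABA). It was chosen by the library titles and takes 6 of the 18 libraries of the study, 3 of bro1-1 and 3 of WT (Col-0), with all 32833 genes of the files. Seedlings were 2 weeks old and received 100 µM ABA for 4 h. The other 12 libraries hold bro1-1 and WT seedlings at mock (0 µM ABA) and after 2 h of ABA, 3 libraries per group, and they are used below only to set values side by side. In each genotype the same mock group serves both times, with no mock labelled for 2 h or 4 h. A rise, fall or response to ABA below means the difference of ABA 4 h from mock. In it, ABA and elapsed time cannot be told apart. bro1-1 is a homozygous T-DNA line with an insertion between exons 6 and 7 of AtBro1, and as the only mutant line sequenced it stands for 1 insertion event. Whole seedlings were taken, so that a difference in the share of a tissue and a difference in RNA per cell cannot be told apart.

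AtBro1 carries a BRO1-like domain. In yeast and animals, proteins with this domain, such as Bro1 and ALIX, work with the ESCRT complexes that sort membrane cargo into endosomes. ABA is the hormone of drought and seed dormancy, and in Arabidopsis it is bound by PYR/PYL receptors that then hold back PP2C phosphatases and release SnRK2 kinases. Jasmonate, which appears often below, is made from plastid fatty acids by lipoxygenase, allene oxide synthase and allene oxide cyclase. Its isoleucine conjugate is perceived by COI1, after which JAZ repressors are degraded and MYC2 activates genes of wounding and insect defence.

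The 3 bro1-1 libraries held between 17025150 and 17307769 expected counts and the 3 WT libraries between 17132850 and 17279528, so depth was nearly equal. A count of 3 in a library lay between 0.159 and 0.188 CPM (CPM is the count scaled to a common library size with TMM factors). Of the 32833 genes, 24483 had a count in at least 1 of the 6 libraries, and 19801 passed the filter on low counts and were tested. Among the 15 pairs of these libraries, the pair most alike crossed the genotypes: bro1-1 replicate 1 and WT replicate 2 had a Pearson correlation of log2 CPM of 0.985 over 18892 genes, against 0.965 to 0.976 for pairs within a genotype. Photosynthesis genes of the leaf and root markers were both detected in all 6 libraries.

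AtBro1 (AT1G73390, chromosome 1 from 27590810 to 27595752 on the minus strand, TAIR10.1) was examined first, since the line is a mutant of this gene. At 4 h it had 133, 181 and 134 CPM in bro1-1, against 469.8, 278 and 542 CPM in WT. Every bro1-1 library lay below every WT library, but the transcript was far from absent, and all bro1-1 libraries lay above the mock level of either genotype. At mock the levels were 12.7, 10.7 and 11.3 CPM in bro1-1, against 21.4, 12.6 and 13.4 CPM in WT, and at 2 h they were 196, 177 and 182 CPM in bro1-1, against 503, 534 and 408 CPM in WT. The log2 fold change of bro1-1 over WT at 4 h was -1.51 (SE 0.26), with an adjusted p of 0.199 from edgeR and of 9.57e-06 from DESeq2. In the fit of all 18 libraries the edgeR value was 0.0326, and without WT replicate 2 it was 0.0400. Without both WT replicate 2 and bro1-1 replicate 1 it was 0.0402. In every other edgeR alternative AtBro1 was not called, with adjusted p values from 0.114 without the filter on low counts to 0.559 without WT replicate 1. At 2 h AtBro1 was called, with a log2 fold change of -1.38 (SE 0.15, adjusted p = 0.044). ABA raised AtBro1 in both genotypes, by 3.71 (SE 0.19) on the log2 scale in bro1-1 and by 4.799 (SE 0.37) in WT at 4 h against mock. The counts are totals over the gene, so they do not show whether a transcript crosses the insertion.

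The paralog AT1G17940, which encodes another BRO1-like domain protein, had 370.5, 382 and 228 CPM in bro1-1, against 420.3, 281 and 540.5 CPM in WT at 4 h. Its groups overlapped, with a log2 fold change of -0.32 (SE 0.29, adjusted p = 0.722). ABA raised it in both genotypes, by 4.098 in bro1-1 and 4.23 in WT on the log2 scale.

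At 4 h edgeR called 4 genes at an adjusted p under 0.05 and a log2 fold change beyond 1. Those higher in bro1-1 were GDA1 and LOX2, which make up 0.0101% of the genes tested, and those lower were MRD1 and PI4KGamma3, also 0.0101%. At an unadjusted p under 0.05, 1156 genes (5.84%) were higher and 851 (4.30%) lower in bro1-1. The groups did not overlap for 1296 genes with higher values in bro1-1 (6.55%) and for 1541 with lower ones (7.78%). DESeq2 called many more genes on the same libraries, 200 higher (1.01% of 19730) and 68 lower (0.345%), and its 268 calls included the 4 of edgeR. The median log2 fold change over all genes tested was -0.01. The edgeR count was 2 without WT replicate 1, WT replicate 3, bro1-1 replicate 2 or bro1-1 replicate 3 (MRD1 and PI4KGamma3 each time), 9 without bro1-1 replicate 1 and 34 without WT replicate 2. With WT replicate 2 and bro1-1 replicate 1 both left out, an alternative chosen after seeing the data, it was 322. In the same comparison at 2 h edgeR called 6 genes, or 0.0308% of 19501, and at mock 3 genes, or 0.0153% of 19610. MRD1 and PI4KGamma3 were called at all 3 times. For scale, ABA at 4 h against mock called 4746 genes in bro1-1 (23.8% of 19958) and 4163 in WT (20.9% of 19880).

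**Figure D1:**
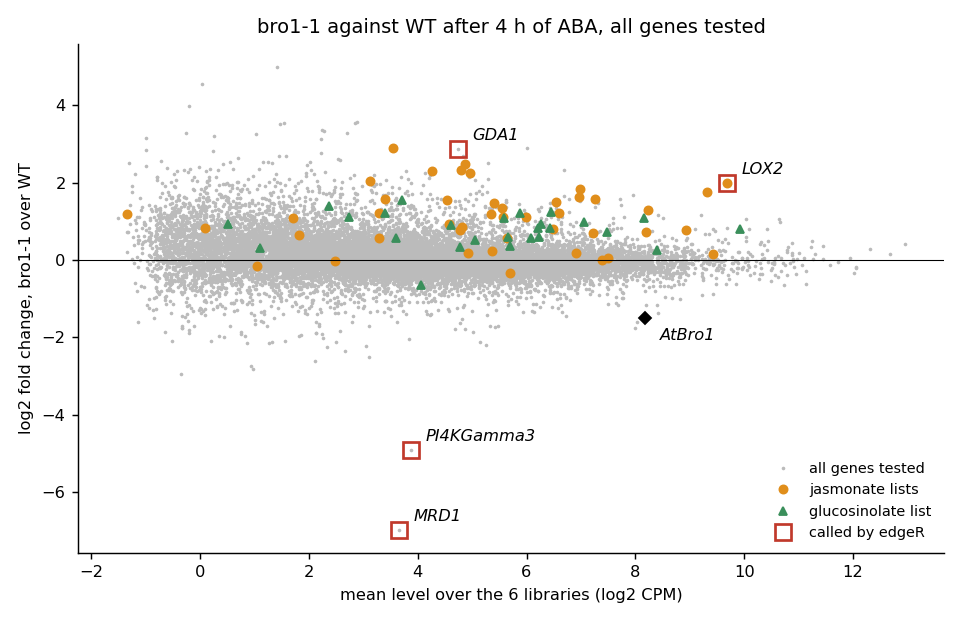
Each grey point is 1 of 19801 genes tested, with its mean level over the 6 ABA 4 h libraries (log2 CPM) on the x axis and the log2 fold change of bro1-1 over WT on the y axis. Orange circles are genes of the jasmonate lists, green triangles genes of the glucosinolate list, red squares the 4 genes called by edgeR and the black diamond is AtBro1; MRD1 at -6.96 and PI4KGamma3 at -4.92 lie far below all other points, and most orange and green symbols lie above 0.

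The 250 bases before the annotated start of each called gene are printed below, because these genes are the ones on which the comparison turns and their starts can be compared for hormone-linked motifs. Letters are from the RefSeq TAIR10.1 genome, read 5′ to 3′ on the strand of the gene. Capitals mark, on either strand, the G-box CACGTG bound by MYC and other bHLH factors, the ABRE core ACGTG bound by ABF factors (which lies inside the G-box), and the W-box core TTGAC bound by WRKY factors. VSP1, a storage protein gene long used as a reporter of jasmonate, is added for comparison.
MRD1 (chr1:19964713-19964962, minus strand): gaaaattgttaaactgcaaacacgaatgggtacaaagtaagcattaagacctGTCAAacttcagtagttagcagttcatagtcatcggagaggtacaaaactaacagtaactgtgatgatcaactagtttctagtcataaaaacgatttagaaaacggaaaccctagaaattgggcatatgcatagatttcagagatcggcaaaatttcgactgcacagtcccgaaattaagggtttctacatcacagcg
PI4KGamma3 (chr5:8234151-8234400, minus strand): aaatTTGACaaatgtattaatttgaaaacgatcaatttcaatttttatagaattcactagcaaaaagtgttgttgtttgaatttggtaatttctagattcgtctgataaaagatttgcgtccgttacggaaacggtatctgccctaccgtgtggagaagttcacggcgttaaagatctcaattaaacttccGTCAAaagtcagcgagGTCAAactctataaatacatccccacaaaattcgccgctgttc
GDA1 (chr1:4868096-4868345, plus strand): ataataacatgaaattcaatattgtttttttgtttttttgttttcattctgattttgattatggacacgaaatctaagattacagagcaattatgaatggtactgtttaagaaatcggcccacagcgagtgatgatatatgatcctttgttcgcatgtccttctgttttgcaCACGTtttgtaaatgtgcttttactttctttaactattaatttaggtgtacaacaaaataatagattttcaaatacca
LOX2 (chr3:16524995-16525244, plus strand): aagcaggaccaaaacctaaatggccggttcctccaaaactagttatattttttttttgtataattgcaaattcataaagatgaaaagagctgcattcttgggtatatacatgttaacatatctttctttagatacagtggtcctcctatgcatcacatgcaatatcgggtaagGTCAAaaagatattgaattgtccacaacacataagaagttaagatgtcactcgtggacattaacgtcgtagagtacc
VSP1 (chr5:8509202-8509451, minus strand): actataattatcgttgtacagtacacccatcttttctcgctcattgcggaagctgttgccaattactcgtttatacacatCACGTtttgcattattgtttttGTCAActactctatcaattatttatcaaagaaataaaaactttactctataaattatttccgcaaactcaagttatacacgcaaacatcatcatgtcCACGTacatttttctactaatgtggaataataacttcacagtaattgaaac
None of the 5 stretches holds a G-box. GDA1 has 1 ABRE core and no W-box core, whereas MRD1 and LOX2 have 1 W-box core each, PI4KGamma3 has 3, and VSP1 has 2 ABRE cores and 1 W-box core. A match is a description of these letters only.

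MRD1 (AT1G53480, chromosome 1 from 19963047 to 19964712 on the minus strand), a gene of unknown function named for its low transcript in the methionine-accumulating mutant mto1, showed the widest difference of all genes tested. It had 0.222, 0.187 and 0.166 CPM in bro1-1, against 24.14, 26.8 and 24.0 CPM in WT. The bro1-1 values come from 4, 3 and 3 counts and the WT values from 398, 505 and 383, so the bro1-1 libraries lie at or near the floor. Summed over libraries and scaled to library size, WT had 131 times the counts of bro1-1 (95% interval 70.9 to 273, counting error only). In bro1-1 MRD1 fell by 6.96 on the log2 scale (SE 0.24, adjusted p = 3.15e-05), a fitted value that depends on the prior count, and it was called under all 13 alternatives, as was PI4KGamma3. At mock it had 0.579, 1.44 and 0.230 CPM in bro1-1, against 40.8, 39.8 and 42.9 CPM in WT, and at 2 h 0.124, 0.463 and 0.364 CPM in bro1-1, against 32.3, 33.0 and 28.9 CPM in WT. In WT the log2 fold change of 4 h over mock was -0.68 (adjusted p = 0.0109).

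The annotation places 2 other genes on the opposite strand over MRD1. HEI10 (AT1G53490, chromosome 1 from 19963267 to 19966952 on the plus strand), which promotes meiotic crossovers, had 1.16, 0.749 and 1.72 CPM in bro1-1, against 6.85, 9.68 and 5.77 CPM in WT. Its groups did not overlap, and its log2 fold change was -2.60 (SE 0.38, adjusted p = 0.0983); at 2 h it was called, at -3.09 (adjusted p = 0.0192). AT1G07887, annotated as other RNA, had no count in any bro1-1 library and 0, 29 and 10 counts in WT, so the groups overlap at 0. Summed over libraries and scaled to library size, the WT counts stood 4.41-fold above a floor of 3 counts per library. This value covers counting error only and is no minimum for the difference between genotypes. The strand setting of the counting is not given in the sources used here, so reads of these overlapping genes may not be told apart. The 250 bases printed for MRD1 lie inside HEI10.

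PI4KGamma3 (AT5G24240, chromosome 5 from 8230916 to 8234150 on the minus strand) encodes a phosphatidylinositol 4-kinase gamma-like protein. It had 0.609, 1.25 and 0.943 CPM in bro1-1, against 25.7, 27.0 and 32.5 CPM in WT, and the groups were separated by more than 10-fold. PI4KGamma3 was lower in bro1-1 than in WT by 4.92 on the log2 scale (SE 0.26, adjusted p = 0.000486), and WT had 30.4 times the mean of bro1-1. The difference was there without ABA, with 0.347, 0.240 and 0.517 CPM in bro1-1, against 27.0, 24.0 and 17.99 CPM in WT at mock and a log2 fold change of -5.94 (adjusted p = 0.00409). AT5G24230 overlaps it on the opposite strand.

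The gamma kinases form a family of 8 genes, 6 of which were tested. All 6 had lower means in bro1-1 at 4 h, with a median log2 fold change of -0.41, and 4 of them had an unadjusted p under 0.05, against a background of 4.30% of all genes. PI4KGamma7 had 78.1, 73.7 and 74.8 CPM in bro1-1, against 109.6, 99.95 and 99.3 CPM in WT (log2 fold change -0.44, SE 0.12, unadjusted p = 0.00692). AT1G13640 had 43.9, 33.1 and 33.6 CPM in bro1-1, against 62.8, 51.4 and 51.8 CPM in WT (log2 fold change -0.57, SE 0.16). In both genes every bro1-1 library lay below every WT library, while PI4KGamma4 overlapped, with 114, 139 and 134 CPM in bro1-1, against 152, 109 and 169 CPM in WT. At mock the family median was -0.03, with PI4KGamma3 as the only member past an unadjusted p of 0.05. In the lower direction at mock, 154 of 19610 genes had such a p.

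GDA1 (AT1G14250, chromosome 1 from 4868346 to 4871488 on the plus strand) encodes a nucleoside phosphatase of the apyrase family, enzymes that remove phosphates from nucleoside triphosphates and diphosphates. It had 35.9, 58.8 and 45.7 CPM in bro1-1, against 6.55, 8.08 and 4.64 CPM in WT, so that the lowest bro1-1 library stood above 4 times the highest WT library. GDA1 was higher in bro1-1 than in WT by 2.86 on the log2 scale (SE 0.26, adjusted p = 0.0236), or 7.29-fold in means. At mock it was low in both genotypes, with 1.16, 0.3001 and 0.690 CPM in bro1-1, against 1.25, 0.427 and 1.93 CPM in WT, and at 2 h it had 7.95, 19.8 and 13.8 CPM in bro1-1, against 4.38, 11.0 and 6.50 CPM in WT with overlapping groups. ABA raised it by 6.03 on the log2 scale in bro1-1 and by 2.46 in WT. The difference between these responses was 3.62 (SE 0.68, unadjusted p = 0.000191), with an adjusted p of 0.83 from edgeR and of 0.00138 from DESeq2, where it was called. The call was lost without WT replicate 1 (adjusted p = 0.202), WT replicate 3 (0.0672), bro1-1 replicate 2 (0.07996) or bro1-1 replicate 3 (0.0937), where the log2 fold change stayed between 2.67 and 2.89.

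Of the 7 apyrase genes, all tested, GDA1 and its chromosomal neighbour AT1G14240 had an unadjusted p under 0.05 in the direction of bro1-1, against 5.84% of all genes. AT1G14240 had 10.9, 17.0 and 10.8 CPM in bro1-1, against 5.64, 10.6 and 3.01 CPM in WT (log2 fold change 1.00, SE 0.43). The remaining 5 stayed between -0.18 and 0.11 on the log2 scale, and APY2, for example, had 43.7, 45.6 and 46.0 CPM in bro1-1, against 42.4, 48.2 and 64.1 CPM in WT. The median of the family was -0.06.

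**Figure D2:**
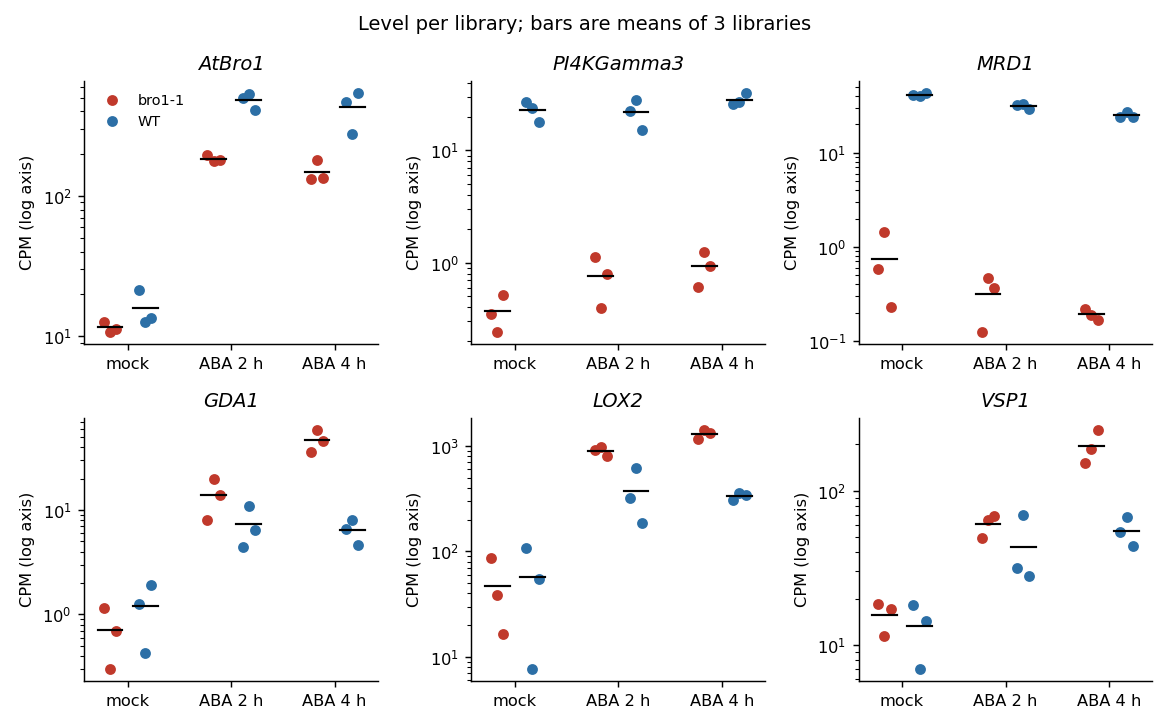
Level of 6 genes in all 18 libraries (CPM, log axis) at mock, ABA 2 h and ABA 4 h, with bro1-1 in red to the left of WT in blue; points are libraries and black bars are means of 3. MRD1 and PI4KGamma3 are separated at every time, whereas GDA1, LOX2 and VSP1 overlap at mock and are separated at 4 h.

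LOX2 (AT3G45140, chromosome 3 from 16525245 to 16529352 on the plus strand), the chloroplast 13-lipoxygenase that opens jasmonate synthesis in leaves, was the most abundant of the called genes. It had 1172, 1423 and 1325 CPM in bro1-1, against 304, 356 and 339 CPM in WT, with little spread in either genotype. LOX2 was higher in bro1-1 than in WT by 1.98 on the log2 scale (SE 0.20, adjusted p = 0.0352), or 3.92-fold in means. At mock it ranged widely, with 86.5, 38.8 and 16.5 CPM in bro1-1, against 109, 7.68 and 55.2 CPM in WT. At 2 h it had 908, 982 and 801 CPM in bro1-1, against 323, 618 and 185 CPM in WT, and although these groups do not overlap the adjusted p was 0.624. The response to ABA was 4.81 in bro1-1 and 2.58 in WT on the log2 scale, and their difference of 2.28 (SE 1.01) had an adjusted p of 0.83. The call was lost in the fit of all 18 libraries (adjusted p = 0.348) and when any library other than WT replicate 2 was left out, with adjusted p values of 0.379 without WT replicate 1, 0.179 without WT replicate 3, and 0.0561, 0.135 and 0.0920 without bro1-1 replicates 1, 2 and 3. Over these fits the log2 fold change lay between 1.91 and 2.04.

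With LOX2, 15 genes of jasmonate synthesis were listed. Of these, 13 were tested, all 13 had higher means in bro1-1, 10 had an unadjusted p under 0.05 and 10 had groups that did not overlap, with a median log2 fold change of 0.85. Over all genes 5.84% had such a p and 6.55% no overlap in that direction. DESeq2 called 6 of the 13, against 1.01% of all genes higher. AOS, allene oxide synthase, had 119, 153 and 289.7 CPM in bro1-1, against 53.4, 61.3 and 69.5 CPM in WT (log2 fold change 1.61, SE 0.31, adjusted p = 0.22 from edgeR and 0.000137 from DESeq2). The allene oxide cyclases follow it in the pathway, and all 4 had groups that did not overlap. AOC4 had 32.7, 34.9 and 35.6 CPM in bro1-1, against 18.01, 22.1 and 20.7 CPM in WT, AOC1 had 40.4, 69.2 and 90.4 CPM in bro1-1, against 31.8, 21.4 and 26.5 CPM in WT, and AOC3 had 12.8, 9.86 and 25.0 CPM in bro1-1, against 4.85, 7.02 and 4.08 CPM in WT. OPR3, which reduces the cyclase product in peroxisomes, had 44.6, 35.0 and 107 CPM in bro1-1, against 26.8, 23.2 and 18.1 CPM in WT, where bro1-1 replicate 3 was far above the other libraries of its group. JAR1, which conjugates jasmonate to isoleucine, had 80.6, 98.6 and 159.9 CPM in bro1-1, against 68.2, 55.8 and 71.7 CPM in WT. LOX6 and ACX1, an acyl-CoA oxidase of the later beta-oxidation steps, overlapped between genotypes, with log2 fold changes of 0.19 and 0.17. Of the lipases, DAD1 was near 0 and DGL at 0 in these libraries.

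JAZ repressors are themselves induced by jasmonate. Of 13 listed genes 11 were tested, 8 had higher means in bro1-1, 7 had an unadjusted p under 0.05 (5.84% of all genes), and the median was 0.68. JAZ3 had 24.8, 30.1 and 39.0 CPM in bro1-1, against 14.4, 18.3 and 17.2 CPM in WT (log2 fold change 0.92, SE 0.19). JAZ9 had 88.5, 83.7 and 243 CPM in bro1-1, against 59.9, 49.2 and 37.7 CPM in WT and JAZ5 had 9.14, 5.24 and 27.4 CPM in bro1-1, against 5.03, 3.14 and 2.07 CPM in WT, both with bro1-1 replicate 3 well above replicates 1 and 2. Without that library the list median was 0.38, and 3 members had an unadjusted p under 0.05. The share of all genes with such a p in that fit is not given here. JAZ11, JAZ12, JAZ4 and JAZ7 overlapped, with log2 fold changes between -0.33 and 0.06.

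The genes of perception and of the MYC factors gave no such pattern. Their 8 members had a median log2 fold change of 0.04. MYC2, the main activator, was the only one with an unadjusted p under 0.05 (5.84% of all genes higher). It had 137, 88.2 and 145 CPM in bro1-1, against 75.5, 72.3 and 79.3 CPM in WT (log2 fold change 0.72, SE 0.20). The receptor gene COI1 had 38.8, 38.9 and 36.5 CPM in bro1-1, against 47.4, 39.1 and 42.1 CPM in WT, and MYC3 had 67.2, 70.8 and 67.9 CPM in bro1-1, against 80.2, 68.8 and 78.5 CPM in WT.

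Among genes of jasmonate output in wounding and defence, all 14 were tested and 8 had an unadjusted p under 0.05 (5.84% of all genes). The groups of 7 did not overlap (6.55% of all genes). All 14 log2 fold changes were positive, from 0.0057 to 2.88, with a median of 1.23. Positive ones numbered 11 of 14 without bro1-1 replicate 2 and 12 of 14 without WT replicate 2. VSP1 had 152, 188 and 249 CPM in bro1-1, against 53.7, 67.9 and 44.2 CPM in WT (log2 fold change 1.83, SE 0.24, adjusted p = 0.0918), and VSP2, its neighbour on chromosome 5, had 969.7, 912 and 1051 CPM in bro1-1, against 275, 376 and 224 CPM in WT (log2 fold change 1.75, SE 0.24, adjusted p = 0.0918). Both pairs of groups were clear of each other by more than 2-fold. JR1, a jacalin-type lectin, had 389, 425 and 462 CPM in bro1-1, against 167, 214 and 147 CPM in WT. NATA1, which acetylates ornithine in the response to jasmonate, had 52.4, 69.1 and 33.4 CPM in bro1-1, against 14.6, 9.73 and 8.54 CPM in WT (log2 fold change 2.25, SE 0.30). MBP1, a myrosinase-binding protein, had 19.3, 11.4 and 31.4 CPM in bro1-1, against 2.79, 4.31 and 1.26 CPM in WT (log2 fold change 2.88, SE 0.50, adjusted p = 0.199). CLH1, a chlorophyllase induced by jasmonate, had 25.8, 33.1 and 80.4 CPM in bro1-1, against 12.8, 8.83 and 6.34 CPM in WT. The defensin gene PDF1.2a, which needs ethylene as well as jasmonate, had 1.55, 2.06 and 0.499 CPM in bro1-1, against 1.09, 1.12 and 0.0628 CPM in WT, and TAT3 and RNS1 also overlapped between genotypes.

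Enzymes that inactivate jasmonate had a median of 1.39, with 5 of 6 members at an unadjusted p under 0.05 (5.84% of all genes). JRG21, which hydroxylates jasmonic acid, had 22.6, 43.7 and 29.5 CPM in bro1-1, against 6.37, 5.58 and 7.66 CPM in WT (log2 fold change 2.299, SE 0.26, adjusted p = 0.0639). AT5G05600, of the same family of 2-oxoglutarate oxygenases, had 161, 189 and 332 CPM in bro1-1, against 71.1, 67.0 and 93.0 CPM in WT. CYP94B3, which oxidises the isoleucine conjugate, had 54.3, 84.1 and 123 CPM in bro1-1, against 38.5, 40.4 and 41.9 CPM in WT. ILL6, an amidohydrolase of that conjugate, had 19.6, 21.3 and 108 CPM in bro1-1, against 9.70, 9.36 and 7.53 CPM in WT, so its difference rests largely on bro1-1 replicate 3.

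In the 4 lists of synthesis, repressors, output and breakdown together, 48 genes were listed and 44 tested. At 4 h 41 of the 44 had higher means in bro1-1, 30 had an unadjusted p under 0.05 in that direction and 0 in the other, and 28 had groups that did not overlap, against 5.84% of all genes with such a p in that direction, 4.30% in the other and 6.55% with no overlap. One of them, LOX2, was called by edgeR (0.0101% of all genes higher) and 18 by DESeq2 (1.01%). Their summed level was 5865, 7073 and 8046 CPM in bro1-1, against 3429, 3112 and 3738 CPM in WT, with bro1-1 replicate 3 highest. The median log2 fold change was 0.11 at mock, 0.57 at 2 h and 1.11 at 4 h. At mock 0 members had an unadjusted p under 0.05 in the higher direction, against 80 of 19610 genes. At 2 h 9 members had such a p, against 3.52% of all genes. This share over all genes was itself smallest at mock. Over the alternatives the 4 h median ran from 0.74 without bro1-1 replicate 3 to 1.35 without WT replicate 2 and bro1-1 replicate 1. The response of these genes to ABA was a median of 1.81 on the log2 scale in bro1-1 (31 of 43 called higher, against 15.5% of all genes) and 1.01 in WT (19 of 43 called higher, against 13.5%). The difference between the responses had a median of 0.91, and 18 of 44 had an unadjusted p under 0.05 in the higher direction, against 773 of 20480 genes. Across all genes, edgeR called 0 for this difference, with 1218 at an unadjusted p under 0.05, and DESeq2 called 5, with the smallest adjusted p at GDA1.

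**Figure D3:**
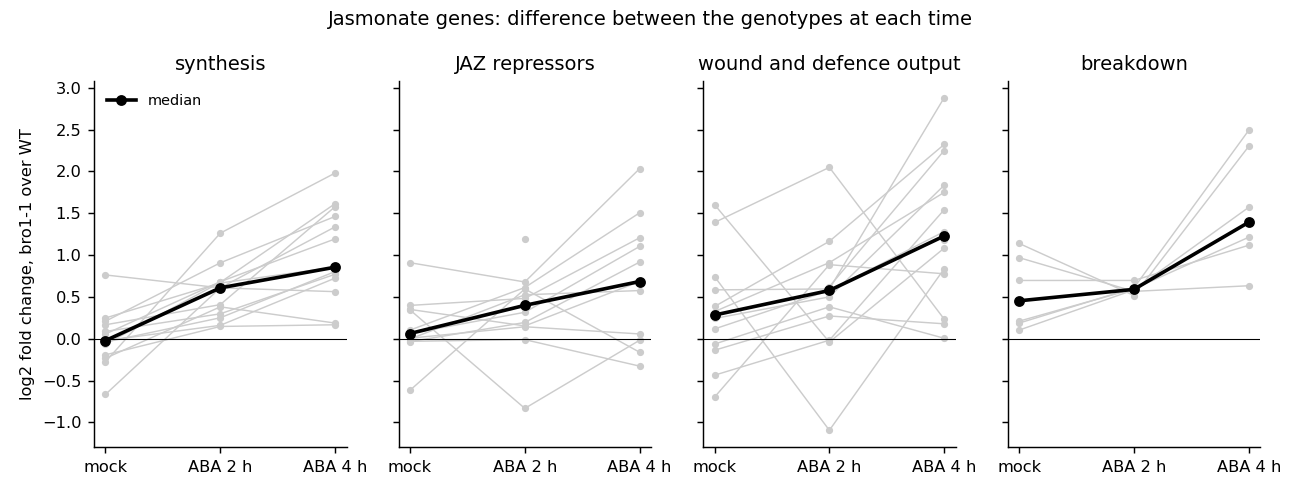
Log2 fold change of bro1-1 over WT for the members of 4 jasmonate lists at mock, ABA 2 h and ABA 4 h, with grey lines for single genes and a black line for the median of the members tested at that time. The medians lie between -0.02 and 0.45 at mock and between 0.68 and 1.39 at 4 h.

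Genes of glucosinolates, the sulfur-rich defence compounds of the cabbage family whose synthesis MYC factors promote, had higher values in bro1-1 in most cases. All 26 were tested, 25 had higher means in bro1-1, 20 had an unadjusted p under 0.05 and 17 had groups that did not overlap, with a median of 0.83. Over all genes 5.84% had such a p and 6.55% no overlap in that direction. None was called by edgeR and 6 were by DESeq2, against 1.01% of all genes higher. FMOGS-OX1, which oxidises side chains, had 16.3, 13.4 and 28.8 CPM in bro1-1, against 6.13, 6.86 and 7.22 CPM in WT (log2 fold change 1.54, SE 0.29, DESeq2 adjusted p = 0.000504). ESP, which steers breakdown towards nitriles, had 11.4, 16.7 and 16.03 CPM in bro1-1, against 6.79, 6.75 and 5.40 CPM in WT (log2 fold change 1.22, SE 0.21). CYP79F1, the first enzyme of the core pathway for methionine-derived glucosinolates, had 120.2, 86.0 and 160.2 CPM in bro1-1, against 37.7, 69.6 and 47.8 CPM in WT, and CYP83A1, the next, had 97.7, 77.7 and 128 CPM in bro1-1, against 48.8, 61.1 and 49.5 CPM in WT. The tryptophan branch showed CYP79B2 at 86.3, 102 and 144 CPM in bro1-1, against 76.6, 67.4 and 43.6 CPM in WT. The myrosinase TGG2 had 386, 395 and 388 CPM in bro1-1, against 200.3, 238 and 116 CPM in WT. Among regulators, MYB28 overlapped, with 33.6, 22.0 and 35.5 CPM in bro1-1, against 22.6, 29.8 and 20.3 CPM in WT, and MYB51 was the only member with a lower mean, with 12.6, 10.4 and 15.5 CPM in bro1-1, against 29.9, 13.1 and 18.1 CPM in WT. At mock the list had a median of 0.09 with 1 of 25 at an unadjusted p under 0.05, against 80 of 19610 genes in that direction. At 2 h the median was 0.76 with 17 of 26, against 3.52% of all genes in that direction. The summed level at 4 h was 3117, 3307 and 3866 CPM in bro1-1, against 2235, 2260.5 and 1631 CPM in WT.

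Among the 10 genes with the smallest p in the higher direction, 5 belong to none of these lists. CSLA10, a cellulose synthase-like gene, had 45.5, 34.3 and 50.5 CPM in bro1-1, against 12.8, 13.7 and 17.4 CPM in WT (log2 fold change 1.58, SE 0.19, adjusted p = 0.0918), and it had been near 1 CPM at mock in both genotypes. HPL1, a hydroperoxide lyase that uses the same substrate as AOS, had 9.58, 7.67 and 9.38 CPM in bro1-1, against 2.00, 2.76 and 1.63 CPM in WT (adjusted p = 0.0918). PAP1, a MYB activator of anthocyanin synthesis, had 30.5, 38.5 and 46.0 CPM in bro1-1, against 10.6, 13.1 and 16.5 CPM in WT, and at mock it had no count in 5 of 6 libraries. AT5G23820, a protein with an MD-2-related lipid recognition domain, had 116, 165 and 120.2 CPM in bro1-1, against 52.5, 55.7 and 52.1 CPM in WT. AT1G75945, an uncharacterized gene, had 4.60, 3.68 and 6.99 CPM in bro1-1, against 0.485, 0.585 and 0.251 CPM in WT, and it stood higher in bro1-1 also at mock, with 8.85, 9.66 and 8.56 CPM in bro1-1, against 0.157, 0.107 and 0.340 CPM in WT, where it was called (adjusted p = 0.0184). The 10 genes in each direction were taken only among genes whose groups did not overlap at 4 h. Their separation at 4 h was therefore fixed by the choice.

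In the lower direction, 8 of the 10 genes with the smallest p were not called at 4 h, AtBro1 and HEI10 among them. SIGD, the plastid sigma factor SIG4 that guides plastid RNA polymerase, had 26.1, 16.9 and 18.6 CPM in bro1-1, against 85.2, 52.4 and 66.8 CPM in WT (log2 fold change -1.71, SE 0.23, adjusted p = 0.0918). It was called at 2 h (log2 fold change -1.56, adjusted p = 0.0205) and had 28.8, 37.9 and 14.0 CPM in bro1-1, against 52.6, 57.6 and 51.3 CPM in WT at mock. The other 5 sigma factors lay between -0.43 and 0.12 on the log2 scale. RBCL, the plastid gene for the large subunit of Rubisco, had 16.4, 13.2 and 11.3 CPM in bro1-1, against 36.99, 31.8 and 33.7 CPM in WT (log2 fold change -1.31, SE 0.17). Chloroplast genes as a whole took 0.0236%, 0.0187% and 0.0243% of counts in bro1-1, against 0.0304%, 0.0316% and 0.0309% in WT, and the part of this share in the RBCL value was not tested.

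RAD52-1, which acts in DNA recombination, was very even, with 6.76, 6.43 and 6.55 CPM in bro1-1, against 17.6, 15.2 and 15.2 CPM in WT (log2 fold change -1.27, SE 0.16, adjusted p = 0.0918). STP1, a hexose transporter of the plasma membrane, had 56.8, 60.7 and 41.6 CPM in bro1-1, against 134, 111 and 127 CPM in WT, and ABA had lowered it in both genotypes, with log2 fold changes of -4.23 in bro1-1 and -2.71 in WT. BXL1, a cell wall beta-xylosidase, had 149, 142 and 98.0 CPM in bro1-1, against 381, 306 and 502 CPM in WT (log2 fold change -1.60, SE 0.24, adjusted p = 0.125). WRKY26, a WRKY factor of heat responses, had 11.6, 14.2 and 11.5 CPM in bro1-1, against 28.9, 21.1 and 27.7 CPM in WT. QQS, an orphan gene linked to starch, had 2.16, 2.81 and 0.610 CPM in bro1-1, against 6.43, 7.76 and 6.65 CPM in WT (log2 fold change -1.89, SE 0.47, adjusted p = 0.313).

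Salicylate defence genes gave a negative median that rested on 1 library. All 17 were tested and had a median log2 fold change of -0.82, with 15 lower in bro1-1. In the lower direction 2 had an unadjusted p under 0.05 (4.30% of all genes). Their summed level was 318, 241 and 171 CPM in bro1-1, against 907, 243 and 212 CPM in WT, so WT replicate 1 stood alone. PR1, the best known salicylate marker, had 26.3, 9.17 and 3.55 CPM in bro1-1, against 144, 23.6 and 6.28 CPM in WT, and WRKY70 had 60.4, 35.0 and 20.6 CPM in bro1-1, against 188, 56.1 and 52.1 CPM in WT. Without WT replicate 1 the median was 0.29, and without bro1-1 replicate 1 it was -1.25. In the fit without WT replicate 1, 3 members had an unadjusted p under 0.05 in the higher direction. The matching share of all genes in that fit is not given here. At mock all 17 had higher means in bro1-1, with a median of 0.55. Of these, 4 had an unadjusted p under 0.05, against 80 of 19610 genes in that direction at mock.

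Rapid stress regulators had a median of -0.22. Of 19, 5 had an unadjusted p under 0.05 in the lower direction (4.30% of all genes) and 1 in the higher (5.84%). The median was -0.0040 without WT replicate 1 and -0.079 without bro1-1 replicate 2, and -0.35, -0.37 and -0.49 without WT replicate 3, bro1-1 replicate 1 and bro1-1 replicate 3. WRKY53, a WRKY factor of senescence and defence, had 16.2, 12.2 and 10.3 CPM in bro1-1, against 62.0, 23.4 and 51.2 CPM in WT (log2 fold change -1.79, SE 0.34, DESeq2 adjusted p = 0.000139). WRKY18 had 34.5, 20.2 and 38.4 CPM in bro1-1, against 94.7, 49.0 and 66.3 CPM in WT, and TCH4, a touch-induced wall enzyme, had 241, 143 and 234 CPM in bro1-1, against 361, 325 and 711 CPM in WT. None of these 3 overlapped between genotypes. In the higher direction ZAT12, a zinc finger factor of oxidative stress, had 29.1, 21.8 and 49.8 CPM in bro1-1, against 24.6, 16.7 and 16.6 CPM in WT. RAV1, an AP2/B3 factor, had a log2 fold change of -1.60 at 2 h (adjusted p = 0.112), and at 4 h it had 53.9, 30.5 and 40.2 CPM in bro1-1, against 50.03, 51.4 and 45.3 CPM in WT.

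The ABA pathway was described by lists of its signalling core, its metabolism and its output genes. Among 28 genes of the signalling core, 25 were tested, with a median of -0.13 and 4 lower at an unadjusted p under 0.05 (4.30% of all genes). The median was -0.063 without WT replicate 3 and -0.054 without bro1-1 replicate 3, and -0.23, -0.21 and -0.25 without WT replicate 2, bro1-1 replicate 1 and bro1-1 replicate 2. The receptor gene PYR1 had 20.3, 23.3 and 17.1 CPM in bro1-1, against 37.7, 28.8 and 29.7 CPM in WT (log2 fold change -0.65, SE 0.17), and the receptor gene PYL5 had 8.09, 7.05 and 9.43 CPM in bro1-1, against 15.7, 12.2 and 10.7 CPM in WT. The kinase gene SnRK2.3 had 46.0, 39.7 and 44.4 CPM in bro1-1, against 65.5, 55.3 and 64.7 CPM in WT (log2 fold change -0.50, SE 0.13, adjusted p = 0.321). The phosphatase gene ABI1 had 796, 862 and 636 CPM in bro1-1, against 826, 624 and 927 CPM in WT, with overlapping groups.

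Of 17 genes of ABA synthesis, breakdown and transport, 14 were tested, and the median was 0.25. At an unadjusted p under 0.05, 4 were higher (5.84% of all genes) and 2 lower (4.30%). NCED3, the rate-limiting dioxygenase of ABA synthesis, had 32.7, 25.8 and 43.2 CPM in bro1-1, against 17.5, 18.5 and 19.1 CPM in WT (log2 fold change 0.89, SE 0.19, adjusted p = 0.266). BG1, which frees ABA from its glucose ester, had 393, 192 and 551 CPM in bro1-1, against 112, 170.0 and 75.4 CPM in WT (log2 fold change 1.67, SE 0.42), and CYP707A3, an ABA 8′-hydroxylase, had 44.4, 49.2 and 36.8 CPM in bro1-1, against 87.1, 48.6 and 153 CPM in WT (log2 fold change -1.13, SE 0.36). BG1 was separated between genotypes and CYP707A3 overlapped by a narrow margin.

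None of the 22 genes of ABA and drought output had an unadjusted p under 0.05, and DESeq2 called none. Their median was -0.15, and it was -0.015 without WT replicate 3, -0.017 without bro1-1 replicate 3, -0.27 without bro1-1 replicate 2 and -0.29 without WT replicate 2. RD29A had 3806, 4812 and 3399.9 CPM in bro1-1, against 3860.1, 2786 and 5131 CPM in WT, and the dehydrin gene RAB18 had 1026, 1195 and 1163 CPM in bro1-1, against 1693, 867 and 1812 CPM in WT. The log2 fold change of RD29A was 0.05 (SE 0.32), and all these groups overlapped. ABA raised 22 of 22 of these genes in bro1-1 (15.5% of all genes called higher) and 21 of 22 in WT (13.5%) by edgeR's call, with medians of 5.07 and 5.51.

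Of the 23 listed genes of the qRT-PCR panel, 22 were tested and 3 were called at 4 h. GDA1 was higher (0.0101% of all genes called higher), and MRD1 and PI4KGamma3 were lower (0.0101% called lower). The panel was partly picked from these libraries and is no independent evidence of direction, and AT5G12730 of the panel was not analysed here. MAF5, a MADS-box factor of flowering time, had 1.72, 1.44 and 1.11 CPM in bro1-1, against 0.485, 0.213 and 0.502 CPM in WT (log2 fold change 1.84, SE 0.48), and MIOX4, a myo-inositol oxygenase, had 0.443, 0.749 and 0.111 CPM in bro1-1, against 1.33, 2.02 and 0.502 CPM in WT (log2 fold change -1.57, SE 0.73), both at few counts.

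BRO1-domain and ESCRT genes were listed for their kinship with AtBro1. Over 20 of them the median was -0.18 (-0.079 without WT replicate 3), and 19 had lower means in bro1-1. In the lower direction 2 had an unadjusted p under 0.05 (4.30% of all genes), AtBro1 itself and the ESCRT-II gene VPS22. VPS22 had 29.3, 28.1 and 29.1 CPM in bro1-1, against 38.0, 33.0 and 35.9 CPM in WT (log2 fold change -0.29, SE 0.12). ALIX, which carries a BRO1 domain and binds ESCRT-III, had 76.6, 86.2 and 84.3 CPM in bro1-1, against 91.8, 78.2 and 86.4 CPM in WT, and the AAA ATPase gene SKD1 had 121, 138 and 136 CPM in bro1-1, against 147, 116 and 162 CPM in WT.

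**Figure D4:**
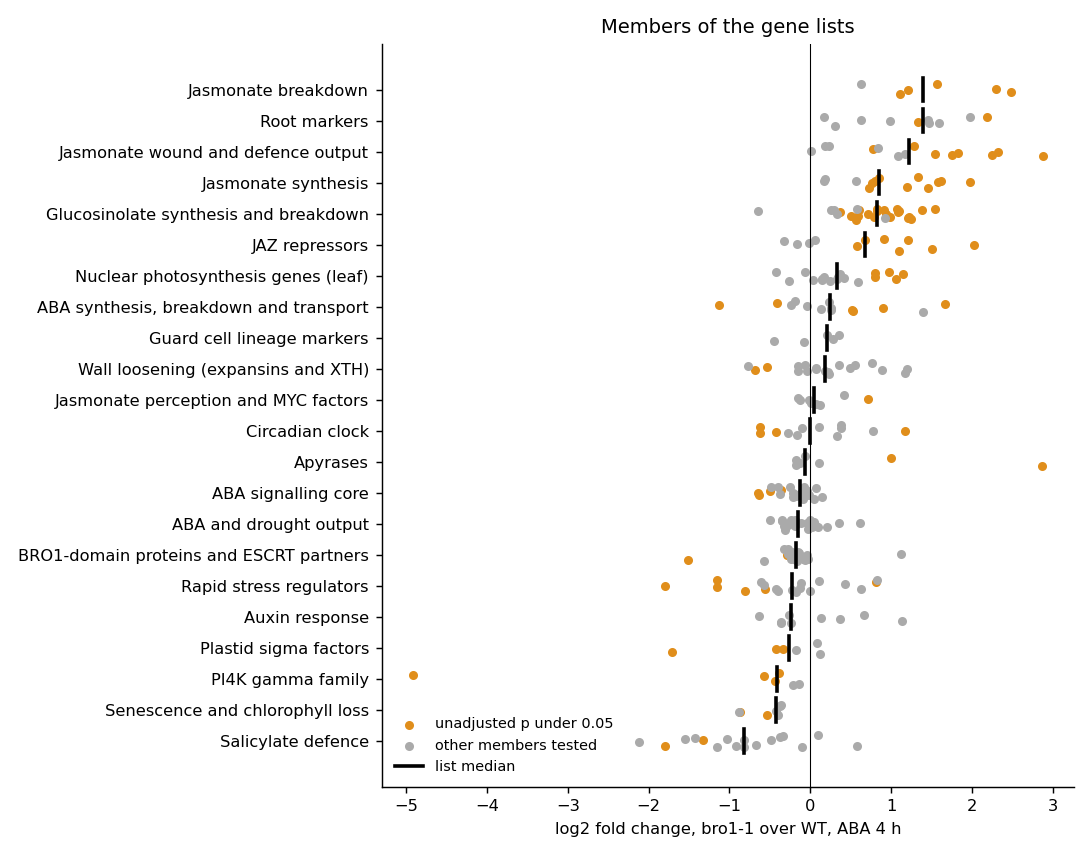
Log2 fold change of bro1-1 over WT at ABA 4 h for each tested member of 22 gene lists, with orange points for an unadjusted p under 0.05, grey points for the others and a black bar for the list median. The jasmonate and glucosinolate lists lie mostly to the right of 0, and the salicylate list to the left with a median of -0.82.

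Markers of tissues were compared because whole seedlings were used. All 10 root markers had higher means in bro1-1 at 4 h, with a median of 1.39 and 2 at an unadjusted p under 0.05 (5.84% of all genes). Their summed level was 55.0, 86.0 and 96.3 CPM in bro1-1, against 36.9, 58.5 and 32.1 CPM in WT, so bro1-1 replicate 1 lay below WT replicate 2. PHT1;1, a root phosphate transporter, had 3.16, 17.0 and 24.9 CPM in bro1-1, against 3.03, 3.99 and 2.76 CPM in WT, and CASP1, of the endodermal Casparian strip, had 8.97, 20.0 and 14.1 CPM in bro1-1, against 3.52, 9.94 and 3.51 CPM in WT. The median moved to 0.87 without bro1-1 replicate 2, 1.09 without WT replicate 3, 1.11 without WT replicate 1 and 2.07 without WT replicate 2, and to 2.41 without WT replicate 2 and bro1-1 replicate 1. With DESeq2 6 root markers were higher at an unadjusted p under 0.05, where 1369 of all genes were. The number was 6 without WT replicate 2, and 1 without bro1-1 replicate 2, WT replicate 1 or WT replicate 3. The share of 5.84% belongs to the main fit, and shares for the fits without a library are not given here. At mock the sums were 69.3, 54.5 and 91.4 CPM in bro1-1, against 115, 79.4 and 81.5 CPM in WT, and at 2 h 82.5, 49.9 and 51.0 CPM in bro1-1, against 42.9, 46.5 and 44.9 CPM in WT. The part of root RNA in the differences described above was not tested. No root marker was at 0 in all 6 libraries.

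Nuclear photosynthesis genes of the leaf had a median of 0.34, with 5 of 18 higher at an unadjusted p under 0.05 (5.84% of all genes). This median was 0.13 without bro1-1 replicate 2 and 0.54 without bro1-1 replicate 3. LHCB2.2, an antenna protein of photosystem II, had 636, 1131 and 678 CPM in bro1-1, against 357, 349 and 403 CPM in WT (log2 fold change 1.15, SE 0.25), whereas RBCS1A, a small subunit of Rubisco, had 7859, 8056 and 4659 CPM in bro1-1, against 6043, 7129.9 and 5493 CPM in WT. The summed level was 47431, 55592 and 32443.5 CPM in bro1-1, against 37374, 37573 and 34201 CPM in WT. Guard cell markers had a median of 0.21 over 5 tested of 6, none with an unadjusted p under 0.05 (-0.026 without bro1-1 replicate 1 and 0.35 without WT replicate 2), and summed to between 57.9 and 68.8 CPM in bro1-1 and between 52.5 and 65.2 CPM in WT.

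**Figure D5:**
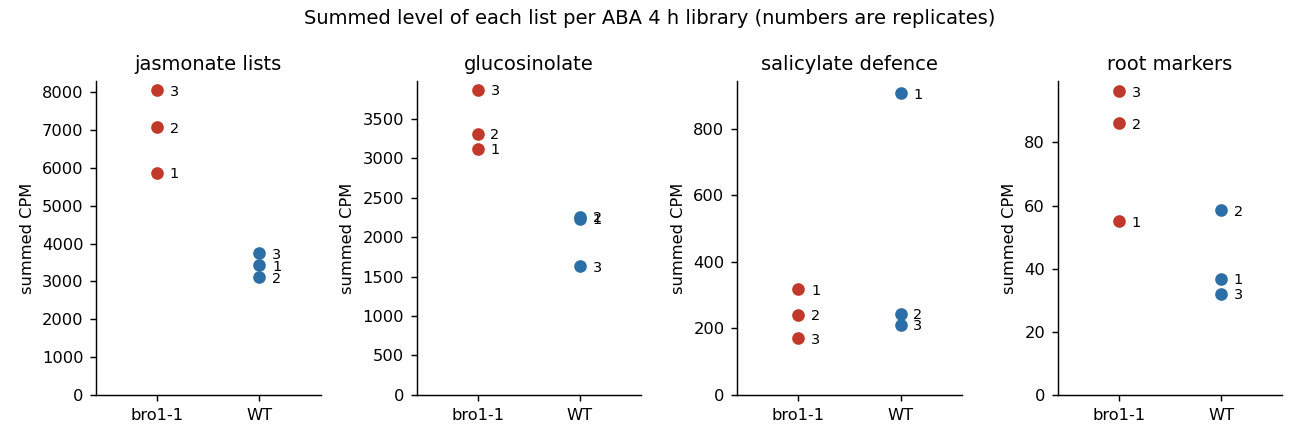
Summed level (CPM) of 4 gene lists in each ABA 4 h library, with bro1-1 in red to the left of WT in blue and the replicate number beside each point. The jasmonate and glucosinolate sums are separated, the salicylate sum is high only in WT replicate 1 (907 CPM), and the root sums overlap between bro1-1 replicate 1 (55.0 CPM) and WT replicate 2 (58.5 CPM).

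Clock genes had a median of 0.00 over 12. At an unadjusted p under 0.05, 1 was higher (5.84% of all genes) and 3 were lower (4.30%). PRR9 had 14.8, 22.9 and 26.1 CPM in bro1-1, against 10.13, 6.75 and 11.7 CPM in WT (log2 fold change 1.17, SE 0.26). TOC1 had 211, 159 and 146 CPM in bro1-1, against 318, 235 and 251 CPM in WT. Senescence genes had a median of -0.42 over 7 tested of 8 (-0.67 without bro1-1 replicate 2 and -0.63 without WT replicate 2), all with lower means in bro1-1, and NYC1, of chlorophyll b breakdown, had 608, 598 and 242 CPM in bro1-1, against 1124, 660.1 and 895 CPM in WT. Auxin response genes had a median of -0.23 over 9 tested of 11, none with an unadjusted p under 0.05, and this sign was not stable. The auxin median was 0.050 without WT replicate 3, 0.025 without bro1-1 replicate 1 and 0.14 over 11 genes with DESeq2, and -0.45 without WT replicate 2. Expansin and XTH genes of wall loosening had a median of 0.18 over 19 tested of 20. At an unadjusted p under 0.05, 2 were lower (4.30% of all genes). The wall loosening median was -0.0040 without WT replicate 1, 0.013 without bro1-1 replicate 1 and 0.054 without bro1-1 replicate 2.

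Motifs in the 300 bases around the start (250 before and 50 after) were counted for all 32546 genes of the files placed in TAIR10.1. A G-box was in 7.11% of these windows, an ABRE core in 25.8% and a W-box core in 49.9%. Among the 48 jasmonate genes 8 held a G-box, 29 an ABRE core (60.4%) and 22 a W-box core (45.8%). Of the 13 JAZ repressors 5 held a G-box and 11 an ABRE core. Of the 4 called genes 0 held a G-box, 1 an ABRE core and 3 a W-box core.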

How the data were processed

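RNA-seq of 18 libraries (3 per group) was used, with 6 libraries in the main comparison. The authors removed rRNA reads with Bowtie2 2.3.5.1 and deposited, per gene and library, expected counts from RSEM 1.2.30 and TPM. The TPM values of the deposited files were not tested here. The genome build and the strand setting are not given in the sources used here. Of 21178 genes with 1 transcript, 99.3% had the same length in TAIR10.1, which was used for positions, symbols and sequences.

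After rounding of the expected counts, tests were run in R 4.3.3 with edgeR 4.0.16 (filterByExpr, TMM, quasi-likelihood F test), using the libraries of each contrast. A call required a log2 fold change beyond 1 and an adjusted p (Benjamini-Hochberg, over all genes tested) below 0.05. The adjusted p values of report and closing section are from edgeR unless DESeq2 is named. SE was the log2 fold change over the root of F. DESeq2 1.42.0, other scalings and filters, all 18 libraries, a replicate block and leaving out each library were alternatives. Fits were tested on simulated counts drawn independently for each library. That setting cannot show how likeness between libraries of different genotypes bears on the calls. Intervals and floors cover counting error only.

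Named genes were AtBro1 and its paralog, the called genes, the 10 with the smallest p in each direction, and members of 23 lists. Those 10 were taken among genes with a mean of at least 1 CPM and groups that did not overlap at 4 h. Genes named by the study or by an earlier analysis of these data were added. From each list the called members were named, else a few with the smallest edgeR p at 4 h. These are therefore not typical of their list, and some further members are shown beside them. The comparison and the lists were chosen with earlier results of these data known. Library depth was 17025150 to 17307769 expected counts in the 6 libraries. The labels describe the replicates as biologically independent.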

Additional observations from a re-analysis of the deposited data

How the results depend on the processing

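At ABA 4 h edgeR's 4 calls became 268 with DESeq2, 18 without the filter on low counts, 9 in the fit of all 18 libraries, between 2 and 34 when a single library was left out, and 322 without WT replicate 2 and bro1-1 replicate 1, which was chosen after seeing the data. The 6 calls at 2 h became 73 with DESeq2 and between 1 and 8 when a library was left out. The 3 at mock became 6 with DESeq2 and between 0 and 2. For the genotype difference at 4 h minus that at mock, 0 calls became 5 with DESeq2 and between 0 and 2 when a library was left out, and for 4 h minus 2 h, 0 became 1 with DESeq2. ABA 4 h against mock in bro1-1 gave 8100 calls with no fold change threshold. The causes were not tested.

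Among 1013 alternative values of 78 named genes, 923 kept their direction and side of the threshold, 78 newly passed it, 11 no longer passed it (GDA1 and LOX2), and KAT1 reversed, its log2 fold change at ABA 4 h running from -0.026 without bro1-1 replicate 1 to 0.37 without bro1-1 replicate 2. Of 299 alternative medians of the lists, 16 moved beyond their spread.

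Replicate numbers were not used as pairs in the main fit. The deviations of same-numbered libraries correlated at 0.126, -0.316 and 0.0400 at 4 h, against -0.265 to 0.195 for differently numbered ones. With 3 libraries per group these values cannot decide whether the numbers pair the samples. With the replicate block the calls were 3 at 4 h, 1 at 2 h and 0 at mock, 0 for both differences between times, and 4672 and 3993 for ABA 4 h against mock in bro1-1 and WT. LOX2 lost its call (adjusted p = 0.135).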
